A study of Homo sapiens with 6 samples.

Results

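The regions described here are all open-chromatin peaks that overlap the window chr8:36000000-43000000 (GRCh38), on the short arm of chromosome 8 around FGFR1 and NSD3, merged over 6 libraries wherever peaks share at least 1 bp. The window spans 7 Mb and held 1820 merged regions, of 507440 on chromosomes 1 to 22, X and Y, while the rest of chromosome 8 held 21913. The peaks come from ATAC-seq, in which a transposase cuts accessible DNA and the pile of sequenced fragments marks open sites. All libraries were made from NCI-H1703, an established line of human lung squamous carcinoma cells. Cells labelled as silenced for the long non-coding RNA DLGAP1-AS2 gave 3 libraries and cells labelled as control gave 3, with no further allele or agent named for either group and library titles reading ASO for the silenced and NC for the control cells. The labels do not say that the libraries of a group came from separate cultures, so each p-value below measures the spread between these libraries of 1 line, which may be technical. Open chromatin does not show the level of an RNA, so the silencing itself was not checked.

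FGFR1 encodes a receptor tyrosine kinase that binds fibroblast growth factors together with heparan sulphate and signals through the adaptor FRS2 to the RAS and ERK cascade. NSD3 encodes a methyltransferase that modifies lysine 36 of histone H3, and it also has a short form without the catalytic domain that links chromatin readers to remodellers. The 2 genes lie close together in a segment of 8p that is recurrently gained in lung squamous cell carcinoma and breast cancer, and NCI-H1703 is widely used as a line with extra copies of this segment. A gained segment supplies more template for the transposase, so that fragments from both its open sites and its closed chromatin accumulate in proportion. The comparison asked whether peak height, peak density and the fragment background in steps of 100 kb set the window apart from the rest of chromosome 8.

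Each deposited peak carries a height (the fragment pileup), a fold enrichment over the local background, a p-value and a false discovery rate (FDR). The local background behind a peak was recovered as (height + 1) / fold − 1, and the lowest such value in a library is called its floor here. A Poisson tail at that background returned the deposited p-value to within 1% for 100% of the peaks compared in every library. Peaks with the smallest p-values were not compared, among them the one at the upper end of FGFR1. The comparison covered 65867 of 91346 peaks in control replicate 2 and 147075 of 170882 in control replicate 1. MACS2 estimates this background from fragments around the peak itself when no control library is given, so crowded strong peaks also lift it. The 6 libraries held 91346 to 170882 peaks. Silenced replicate 3 had the lowest floor (0.237) and control replicate 2 the highest (0.464) with the fewest peaks, and results that rest on them are also given without both. Markers of the labelled tissue were mixed. For each marker 1 gene-end region was counted, that of highest median fold with an uncalled library taken as 0. Of 7 squamous markers only SOX2 had such a region in all 6 libraries, and TP63 had one in 1 library. The alveolar and adenocarcinoma markers NKX2-1 and SFTPC had one in all 6, NAPSA in 5 and SFTPB in 1. Of the general epithelial markers KRT8 had one in 6 libraries, KRT18 in 4, EPCAM in 2 and CDH1 in 1, while the mesenchymal markers VIM, CDH2 and FN1 had one in all 6. For immune and endothelial markers the region counted was called in 0 to 2 libraries. The region could lie at either end of a marker gene, and whether it belonged to a neighbouring gene was not tested. Further gene-end regions of a marker were not counted, so its peaks may occur in more libraries than given.

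Of the 1820 regions of the window, 1294 (71.1%) were called in 1 library and 134 (7.36%) in all 6, which are called shared regions below. On the rest of chromosome 8, 5.92% of the regions were shared, and over all chromosomes 7.35%. By position, 880 of the regions lay within a gene, 106 were centred no more than 1 kb from where a protein-coding or lncRNA gene starts or stops, and 834 lay between genes. Gene ends held 40 of the 134 shared regions, gene bodies 55 and intergenic sequence 39. The gene table used gives no strand and no exons, so an end is named by its lower or upper coordinate. An end is thus the outer limit of a gene span. Transcript starts inside a span are not known here, so a region away from gene ends can still hold one.

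Peaks were denser in the window than on the rest of chromosome 8 in each library. Silenced replicates 1, 2 and 3 had 7.97, 8.37 and 6.94 peaks per 100 kb step in the window and 5.01, 5.20 and 3.63 outside it. Control replicates 1, 2 and 3 had 8, 6.27 and 8.26 in the window and 5.31, 2.51 and 5.20 outside it. The density was thus higher in the window in 6 of 6 libraries, with a log2 ratio of 0.81 ± 0.28 (SD, n = 6; two-sided exact sign-flip test, p = 0.03125, the smallest that 6 libraries allow; 0.125 after Benjamini-Hochberg adjustment over 8 tests). This did not pass 0.05 after adjustment, as no test over 6 libraries could with this family. The highest ratio, 2.5, belonged to control replicate 2, the library with the fewest peaks. Without it and silenced replicate 3 the log2 ratio was 0.65 (exact sign-flip p = 0.125).

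Median heights were higher in the window in 5 of 6 libraries. The median height was 5 in the window and 3 outside it in silenced replicates 1 and 2 and in control replicates 1 and 3. It was 4 against 3 in silenced replicate 3, and 7 against 7 in control replicate 2. The log2 ratio of 0.56 ± 0.30 (SD, n = 6) did not pass the test (exact sign-flip p = 0.0625, adjusted p = 0.167). At shared gene-end regions, which are the same places in every library, the 40 regions of the window had median heights of 37.5, 50.5 and 22.5 in the silenced libraries, in replicate order, and of 52, 53.5 and 49.5 in the controls. The 394 regions of the rest of chromosome 8 had 29, 33 and 14, and 30.5, 34 and 29. All 6 libraries were higher in the window, by 0.64 ± 0.15 on the log2 scale (SD, n = 6; exact sign-flip p = 0.03125, adjusted p = 0.125).

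By the 10th percentile of a step, the background of the whole window did not pass the test. This percentile was taken over the peaks of each step that held at least 5 of them. The median step of the window stood at 1.02, 1 and 1.19 times that of the other chromosome 8 steps in the silenced libraries, in replicate order, and at 1, 1.06 and 1.01 times in the control libraries. The log2 ratio was 0.06 ± 0.10 (SD, n = 6; exact sign-flip p = 0.125, adjusted p = 0.25). With the median over a step's peaks in place of the 10th percentile it was 0.40, above 0 in 6 of 6 libraries (exact sign-flip p = 0.03125). The 10th percentile is bounded by the floor: outside the window the median step lay at the library floor in 4 of 6 libraries, and in the window in 2, so a ratio of 1 there does not show equal background. With steps of 50 kb the log2 ratio was 0.52 (exact sign-flip p = 0.03125).

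**Figure D1:**
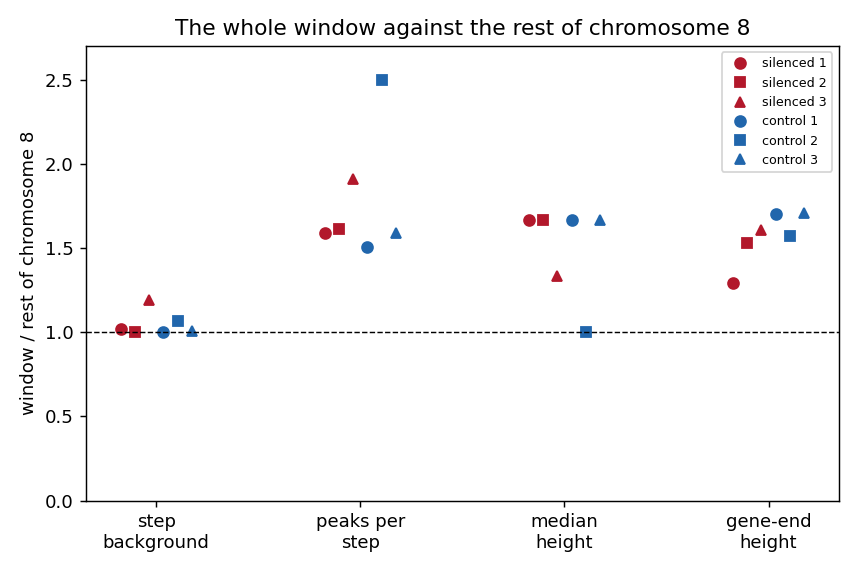
Ratio of the window to the rest of chromosome 8 (vertical axis, linear) for step background, peaks per 100 kb step, median peak height and median height of shared gene-end regions; each point is 1 library, red for silenced and blue for control. Density lies between 1.51 and 2.5 and gene-end height between 1.29 and 1.71, while step background lies between 1 and 1.19.

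Along the window, a stretch had a raised background in all libraries. Of the 36 steps of the window that could be measured in all 6 libraries, 14 (38.9%) had a background of at least 1.5 times the chromosome 8 median in each of them. The same held for 20 of 211 steps (9.48%) on chromosome 8 outside the window and for 386 of 6529 steps (5.91%) on other chromosomes. All 14 lay between chr8:37300001-37400000 and chr8:39000001-39100000, a span of 1800 kb that is called the raised span here. It was chosen by these values, so the following differences within the window are descriptions without a test. Of its 18 steps, 2 could not be measured in all libraries and 2 were not raised. With a limit of 1.3 times the median, 15 steps of the window (41.7%) were raised, against 11.8% on the rest of chromosome 8 and 9.45% on other chromosomes. With a limit of 2 times, 12 steps (33.3%) were, against 3.79% and 2.13%. With the median background of a step in place of the 10th percentile, 17 (47.2%) were, against 23.2% and 23.8%.

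The raised span began with a ratio of 1.78 to 2.63 in its first step and ended with 2.46 to 3.48 in its last. At the step of FGFR1, chr8:38400001-38500000, the background was 3.48 to 6.13 times the chromosome 8 median. The step with the highest minimum over libraries was chr8:38900001-39000000, with PLEKHA2, TM2D2, HTRA4 and part of ADAM9, at 3.63 to 5.30 times. A step at ERLIN2 and PLPBP reached 2.75 to 8.23 times. Beyond the last raised step the ratio was 1.19 to 1.90 in the first step, 1.09 to 1.64 in the next and 0.837 to 1.13 in the third. No measured step below the first raised one was raised in all 6 libraries, although the step 200 kb before it stood at 1 to 1.81 times.

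**Figure D2:**
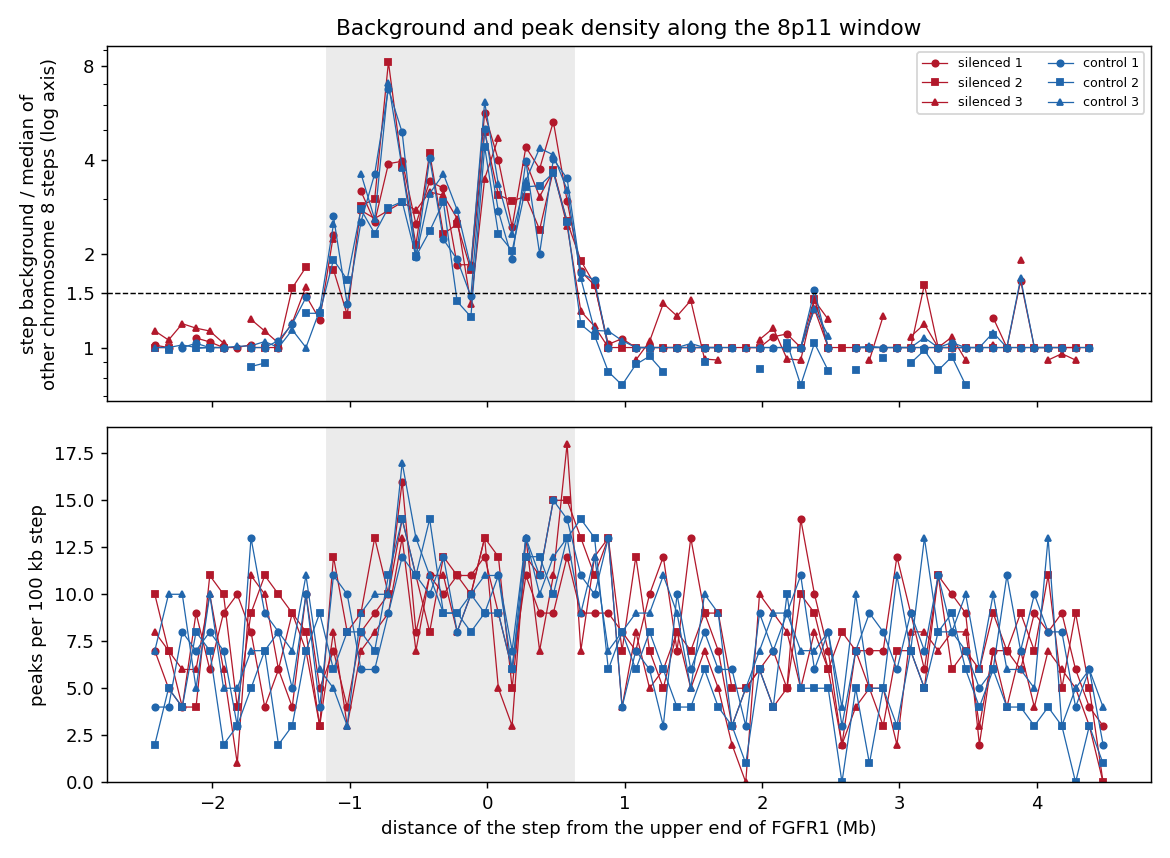
Step background relative to the median of the other chromosome 8 steps (upper panel, log axis, dashed line at 1.5) and peaks per 100 kb step (lower panel) against the distance of each step from the upper end of FGFR1 in Mb; each line is 1 library, red silenced and blue control, and grey marks the raised span. The 6 libraries rise together inside the grey area and lie near 1 over most of the window above it.

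The 2 measured steps of the span that were not raised both overlap NSD3. The step chr8:38200001-38300000, with DDHD2, PLPP5 and the lower end of NSD3, was raised in 5 of 6 libraries (1.41 to 2.76 times). The step chr8:38300001-38400000, which holds most of NSD3 and the lower end of LETM2, was raised in 3 of 6 (1.25 to 1.84 times). Within NSD3 itself, between its 2 gene-end regions, the 7 to 9 peaks per library had a median background of 1.94 to 2.7 times the library floor. Across LETM2 and FGFR1 beyond the first 10 kb, the median was 6.47 to 8.39 times the floor with 7 to 11 peaks per library. The background behind peaks of NSD3 was thus lower than across LETM2 and FGFR1 in every library, and the ranges do not overlap. The stretches are not alike, since the LETM2 and FGFR1 one kept the gene-end regions at the lower end of FGFR1.

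Inside the raised span there were 9.17 to 11.2 peaks per step and library, against 5.06 to 7.62 in the rest of the window. The median height was 8 to 14.5 inside and 3 to 5 outside, and the median fold was 3.95 to 4.54 inside and 2.85 to 3.66 outside. At most 0.541% of the span's peaks sat at the library floor (within 0.5% of it) in any library, compared with 9.89% to 49.9% in the other part of the window and 20.4% to 61.8% on the rest of chromosome 8. The median background was 4.58 to 5.13 times the floor in the span and 1.04 to 1.59 times in the rest of the window. In these measures every library had its span above its own remaining window.

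The span is also richer in genes: RefSeq places 23 protein-coding genes in it (1.28 per step), 28 in the rest of the window (0.538 per step) and 663 on the rest of chromosome 8 (0.493 per step). The peaks farther than 10 kb from any gene end, which were looked at only after these values were known, numbered 75 to 93 per library in the span. Their median background was 3.88 to 4.35 times the floor, and at most 1.19% of them lay at the floor. Outside the span, such peaks of the window had a median background of 1 to 1.47 times and those of the rest of chromosome 8 of 1 to 1.38 times. The median height of these distant peaks was 7 to 11 in the span, 3 to 5 elsewhere in the window and 3 to 6 on the rest of chromosome 8. These distant peaks are among those whose background picked the span, so their values describe it and do not test it. Too few steps held 5 such peaks for a profile: 11 steps of the window could be measured and 2 of them (18.2%) were raised, against 6 of 59 (10.2%) on the rest of chromosome 8 and 71 of 1109 (6.40%) on other chromosomes.

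Raised runs also occurred elsewhere. Longer runs of raised steps, with unmeasured steps allowed between them, lay on chromosome 17 (12 raised steps, chr17:81100001-82500000), chromosome 12 (10, chr12:6200001-7200000) and chromosome 5 (9, chr5:900001-1900000), and the 2 runs of the span held 8 and 6. The chromosome 17 and 12 runs carried 3.79 and 4.4 protein-coding genes per step and the chromosome 5 run 1.80. Their peaks over 10 kb from a gene end had a median background of 2.07 to 4.74, 3.08 to 6.58 and 6.16 to 7.67 times the floor. Another run on chromosome 5 (8 raised steps, chr5:14000001-14800000), with 0.5 genes per step, reached 8.11 to 10.4 times. Windows of the same length centred on MYC and on PDGFRA had 3 of 29 (10.3%) and 1 of 14 (7.14%) measured steps raised. Their highest single steps, at a minimum over libraries of 4.37 times for the MYC window and 3.78 times for the PDGFRA window, in the step of PDGFRA itself, exceeded the highest of the 8p11 window at 3.63 times. Copy number was not measured, neither in the 8p11 window nor in these other stretches, so they are no baseline of unchanged copy number. Extra copies, gene density and openness of the chromatin cannot be told apart from peak lists alone.

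The genes of the commonly gained 8p12 segment had tall gene-end peaks. The list was drawn up from the known segment with results of these data already in view. Of its 20 genes, 17 had a gene-end region called in all 6 libraries, against 354 of 663 protein-coding genes on the rest of chromosome 8. Where a gene had several gene-end regions, the one of highest median fold was counted. For GOT1L1 the region was called in 2 libraries and for TACC1, with 2 gene-end regions, the one counted was called in 1. STAR, the steroidogenic cholesterol carrier, had none. The strongest regions of the 17 genes had library median heights of 36 to 120. For the 354 protein-coding genes on the rest of chromosome 8 with such a region, chosen in the same way, the medians were 16 to 41. The list was higher in every library, least in silenced replicate 3 (36 against 16) and most in control replicate 2 (120 against 40). Ranked among the 37284 shared regions of the genome, their median stood at percentile 97.9 by height and 80.6 by fold, against 77.6 and 72.3 for the 354 genes. Their median background was 17.4 times the floor, compared with 5.78 times for the 354 genes.

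The FGFR1 region lies at the upper end of the gene (chr8:38468266-38468931), the gene itself spanning chr8:38411143-38468635. Its height was 156, 189 and 55 in the silenced libraries, given in replicate order here and below, and 154, 160 and 160 in the control libraries. The silenced replicate 3 value is the lowest, as it was at 96 of the 134 shared regions, and the other 5 libraries lie within the range 154 to 189. Its median fold was 17.8, and it ranked at percentile 99.7 by height and 94.9 by fold. In all, 14 regions overlapped the span of FGFR1, 4 of them shared and 7 in 1 library. The other 3 shared regions of its span were lower, with heights of 12 to 30. One of them, chr8:38445983-38446301, chosen after its values were seen, had 14, 17 and 14 in the silenced and 23, 23 and 28 in the control libraries. Its groups do not overlap by height, and neither do those of 12 of the 134 shared regions of the window (8.96%), against 8.95% of all shared regions, a share near the background. The control heights are the higher ones in all 12, and in all but 60 of the 3336 such regions of the genome. The comparison of fold ranks by limma described below gave chr8:38445983-38446301 an adjusted p of 0.966. None of the regions in FGFR1 was called in one group only.

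NSD3 (chr8:38269704-38382271) has a shared region at each end. At the lower end, next to PLPP5, which encodes a lipid phosphate phosphatase, chr8:38268448-38269731 had heights of 104, 101 and 32 in the silenced and 120, 125 and 95 in the control libraries. At the upper end, shared with LETM2, chr8:38382175-38382758 had heights of 79, 92 and 43 in the silenced and 77, 98 and 75 in the control libraries. The upper region was tall but low in fold: it ranked at percentile 95.5 by height and 28.0 by fold, over a background 33.7 times the floor. The groups overlapped at both ends. The span of NSD3 held 29 regions, of which 22 were called in 1 library and 2 in all 6, and none in one group only. The taller of those 2, chr8:38286379-38287041, had heights of 41, 24 and 16 in the silenced and 26, 33 and 32 in the control libraries.

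Among the other genes of the segment, PLPBP, which encodes a pyridoxal phosphate binding protein, had the highest fold of the window. Its region chr8:37762123-37763316 had heights of 142, 176 and 84 in the silenced and 147, 173 and 174 in the control libraries and a median fold of 22.3. BRF2, a subunit of an RNA polymerase III initiation factor, followed FGFR1 in the list by fold, with heights of 89, 83 and 68 in the silenced and 92, 101 and 101 in the control libraries at chr8:37849521-37850144. The lowest median fold in the list was that of PLEKHA2, a phosphoinositide-binding adaptor, with heights of 21, 39 and 16 in the silenced and 21, 24 and 17 in the control libraries at chr8:38901498-38902136. Another 4 genes were chosen after their values were seen. ASH2L, a core subunit of histone H3 lysine 4 methyltransferase complexes, had heights of 140, 185 and 54 and of 141, 166 and 140. ERLIN2, an endoplasmic reticulum lipid raft protein, had 117, 123 and 51 and 93, 145 and 123. ZNF703, a transcriptional repressor gene, had 78, 82 and 34 and 91, 80 and 80. EIF4EBP1, the translation repressor 4E-BP1, had 102, 124 and 48 and 117, 111 and 108. PLEKHA2 apart, each of these regions stood above the gene-end median of the rest of chromosome 8 in every library, and silenced replicate 3 was lowest at all of them.

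The tallest region of the window belonged to neither FGFR1 nor NSD3. It lies between TM2D2 and ADAM9, the gene of a membrane-anchored metalloprotease, at chr8:38996179-38997084, near the upper border of the raised span. Its height was 269, 359 and 206 in the silenced and 302, 336 and 313 in the control libraries, percentile 99.99 among shared regions. By fold it ranked at percentile 91.3, over a background 47.9 times the floor. The ADAM and IDO list also holds testis-expressed members of the metalloprotease family and the genes of tryptophan-degrading enzymes, and these had few regions at their gene ends. Of 9 genes, TM2D2 and ADAM9 share this region, and HTRA4, ADAM2 and IDO1 had none. For the other 4 the gene-end region counted was called in 1 or 2 libraries. Within its gene span ADAM32 held 15 to 25 peaks per library and ADAM18 7 to 16.

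**Figure D3:**
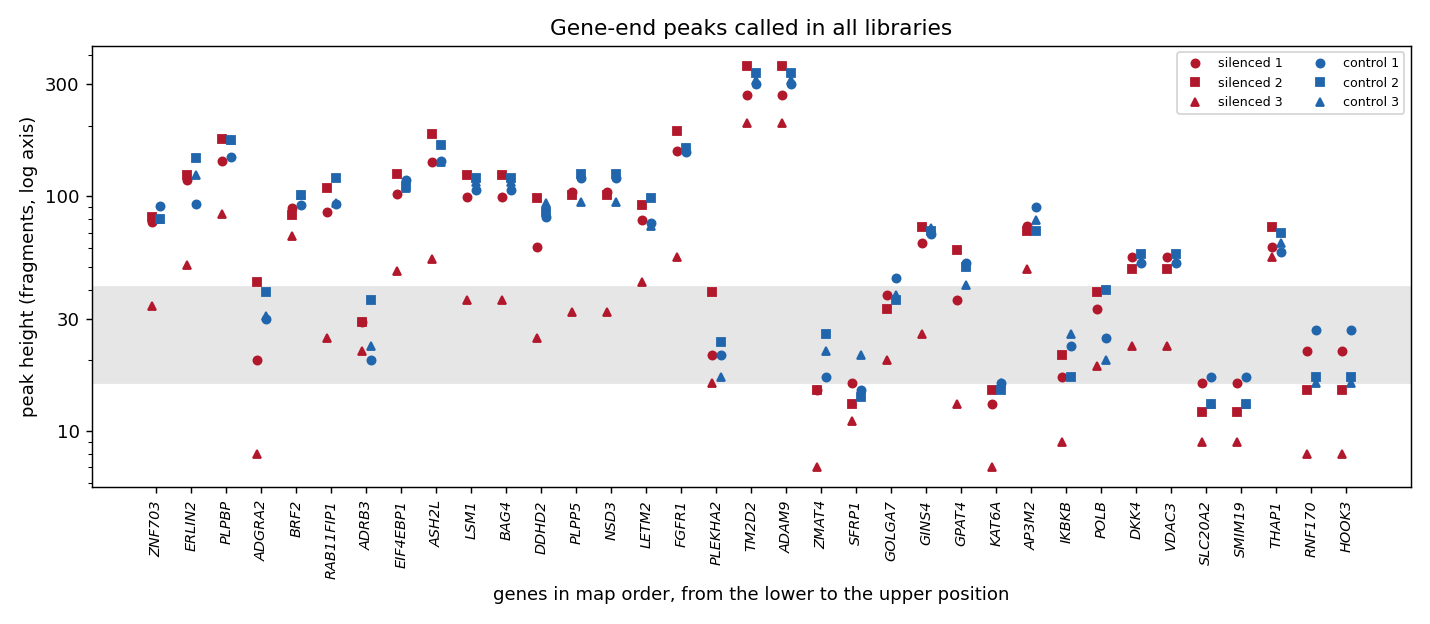
Height of the strongest gene-end peak (vertical log axis, fragments) in each library for the genes of the window lists with a region in all 6 libraries, in map order; red is silenced, blue is control, and the grey band is the range over libraries of the median of 354 protein-coding genes on the rest of chromosome 8 (16 to 41). Most genes from ZNF703 to ADAM9 lie above the band, genes that share a region show the same points, and silenced replicate 3 (red triangle) is usually lowest.

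The genes closer to the centromere, outside the raised span, gave lower values. Of the 24 genes of the proximal list, 18 had a gene-end region in all 6 libraries, against 354 of 663 on the rest of chromosome 8. The list includes 3 genes, FNTA, POMK and HGSNAT, that lie just past the upper limit of the window. Library median heights were 12 to 31, or 0.658 to 0.775 times those of the 354 genes on the rest of chromosome 8, at percentile 65.9 by height and 65.7 by fold. Their median background was 4.13 times the floor. The peaks of highest fold in this stretch had folds at or above that of FGFR1. GINS4, a subunit of the replicative helicase complex, had heights of 63, 74 and 26 in the silenced and 69, 71 and 73 in the control libraries (chr8:41528759-41529524, median fold 19.4). AP3M2, an adaptor of vesicle transport, had 75, 71 and 49 and 90, 71 and 79 (chr8:42152583-42153785, median fold 18.7). THAP1, a zinc finger transcription factor, had 61, 74 and 55 and 58, 70 and 63 (chr8:42842692-42843640, median fold 18.2). These 3 regions, PLPBP and FGFR1 were the 5 of highest median fold in the window. KAT6A, a histone acetyltransferase gene, had the lowest median fold among the 18, with heights of 13, 15 and 7 and of 16, 15 and 16 (chr8:42051697-42052882). FGFR1 had a median height of 158 and GINS4 one of 70, at median folds of 17.8 and 19.4.

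The shared regions of the raised span ranked higher by height than by fold. The span was chosen by its background, and fold is height over background, so this order follows in part from the choice and is a description only. Of its 75 shared regions, 21 (28.0%) reached percentile 90 by height, against 9.72% of all shared regions of the genome. By fold, 7 (9.33%) reached percentile 90, against 9.38% of all, a share near the background. The median percentile of the 75 regions was 73.4 by height and 44.9 by fold, and 70 of the 75 ranked higher by height. The 59 shared regions in the other part of the window had medians of 38.9 by height and 41.6 by fold, with 3 (5.08%) and 5 (8.47%) past percentile 90, and 17 ranked higher by height. On the rest of chromosome 8 the medians were 40.3 and 43.0.

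**Figure D4:**
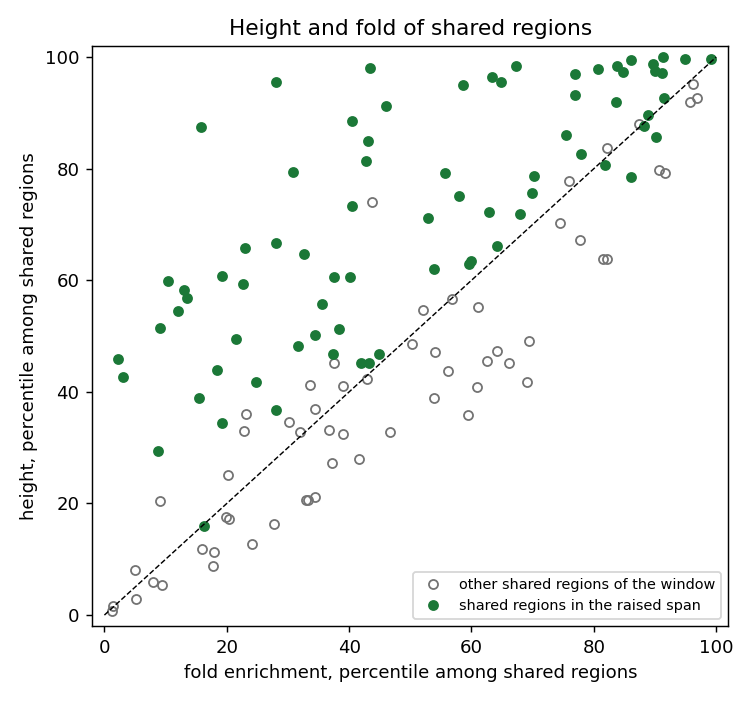
Median height percentile (vertical axis) against median fold percentile (horizontal axis) of the 134 shared regions of the window, both among 37284 shared regions of the genome; filled points lie in the raised span, open points elsewhere in the window, and the dashed line marks equal percentiles. Of the filled points 70 of 75 lie above the line, of the open points 17 of 59.

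Gene spans with at least 5 peaks in every library allowed a view of the lowest background within a gene. The lowest background within FGFR1 was 4.93 to 6.13 times the floor. In LETM2, which encodes a protein of the mitochondrial inner membrane, it was 5.75 to 8.39 times. ADGRA2, an adhesion G protein-coupled receptor gene, gave 4.57 to 8.16 times. For PLEKHA2 it was 2.90 to 5.37, for TACC1, a centrosomal coiled-coil protein gene, 1.89 to 3.62, and for ADAM9 2.14 to 3 times. In NSD3 it was 1.32 to 1.68 times, below each of these in every library. Above the span, ADAM32 stood at 1 to 1.43 times, and ZMAT4, ANK1 and KAT6A were at the floor itself in all libraries, as was the potassium channel gene KCNU1 below it. Of 51 protein-coding genes of the window, 13 could be measured in this way, and 6 of them stayed at 1.5 times the floor or more in every library.

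**Figure D5:**
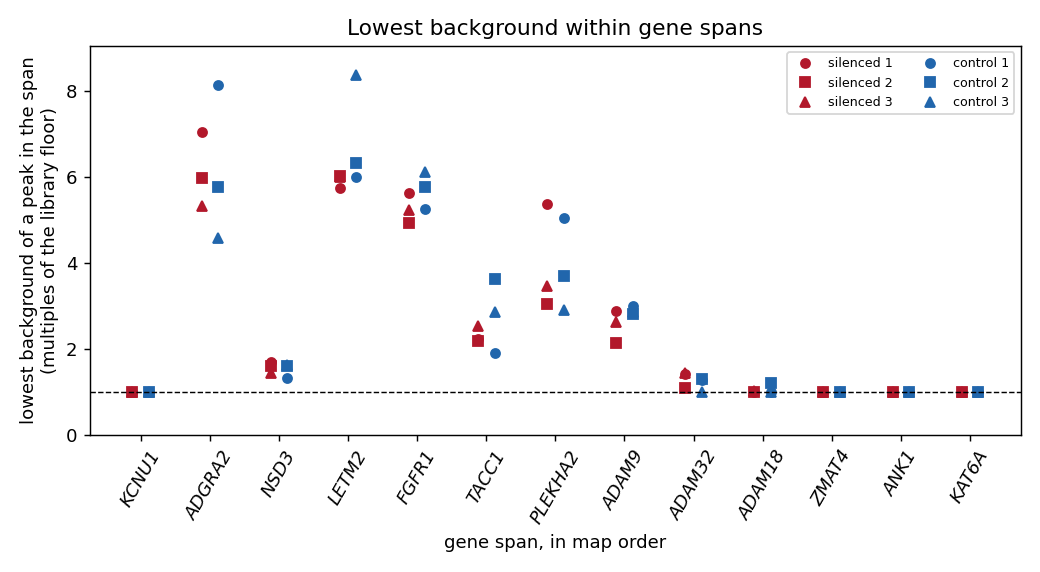
Lowest background of any peak within the span of a gene (vertical linear axis, multiples of the library floor, dashed line at the floor) for the 13 genes of the window with at least 5 peaks in every library, in map order; each point is 1 library, red silenced and blue control. ADGRA2, LETM2 and FGFR1 lie highest, NSD3 lies between 1.32 and 1.68, and the genes at both outer ends of the window lie at 1.

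Other parts of the FGF receptor pathway lie elsewhere in the genome and were looked at for context. Of 21 pathway genes 16 had a gene-end region in all 6 libraries, against 354 of 663 protein-coding genes on the rest of chromosome 8. FGFR4 had heights of 41, 55 and 31 in the silenced and 49, 50 and 42 in the control libraries. FGFR2 had 12, 16 and 5 and 11, 15 and 18, and for FGFR3 the gene-end region counted was called in 4 libraries. FGFR1 was thus the tallest receptor peak in all 6 libraries. ETV5, a transcription factor gene induced by ERK signalling, had 133, 145 and 78 and 134, 168 and 135. All 5 genes for histone H3 lysine 36 methyltransferases had a shared region. Those of NSD1 had heights of 30, 29 and 21 and 24, 42 and 37, those of NSD2 15, 26 and 9 and 26, 19 and 19. Both were lower than the region at either end of NSD3 in every library.

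The second question was whether silencing of DLGAP1-AS2 went with a difference in the window. The share of a library's peaks that fell in the window was 0.344%, 0.349% and 0.400% in the silenced libraries and 0.328%, 0.481% and 0.349% in the control libraries, in replicate order. The groups overlapped, and the difference of −0.02 percentage points lay within the spread of the libraries (p = 0.9 by an exact permutation test, two-sided, and 1 after adjustment; 3 against 3 cannot give less than 0.1). For the ratios to the rest of chromosome 8, silenced minus control was 0.06 on the log2 scale for background (exact permutation p = 0.7), −0.09 for density (exact permutation p = 1) and 0.14 for height (exact permutation p = 1). Of these 4 differences none exceeded the spread between libraries, and each changed sign when 1 library was left out: silenced replicate 3 for background (−0.02) and control replicate 2 for density (0.14), height (−0.11) and share (0.03). With lists of equal size the background difference was 0.32, and its exact permutation p was 0.1, the smallest possible here, while the other alternatives gave −0.06 to 0.16.

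Region by region, no shared region of the window passed the test between the groups. Ranks of fold within each library, turned into normal scores, were compared with limma over all 37284 shared regions. At a Benjamini-Hochberg adjusted p of 0.05, 0 of the 134 shared regions of the window were called, and the genome gave 0 calls (0%), with a smallest adjusted p of 0.963. At an unadjusted p under 0.05, 6 of the 134 (4.48%) stood out against 4.68% of all, a share near the background. Ranks by height gave 10 (7.46%) against 4.34% of all, and the fit with the replicate number as a block gave 3 (2.24%) against 4.75%. The 4 higher and 2 lower in silenced cells included an intergenic region with a score difference of 1.27 ± 0.49 (SE; chr8:41403956-41404533) and one in an uncharacterised locus with 0.60 ± 0.26 (SE; chr8:38588589-38589339). The former was weak, with heights of 4, 7 and 4 in the silenced and 2, 4 and 4 in the control libraries. Its worst FDR was 0.541, and it ranked at percentile 2.87 by height. In the other direction were the gene-end region of ZMAT4, −0.64 ± 0.30 (SE; chr8:40897640-40898074), and an intergenic region, −0.74 ± 0.35 (SE; chr8:42805270-42805859). The unadjusted limma p-values of these 4 were 0.0175, 0.0366, 0.0455 and 0.0473, and each adjusted p was 0.963. FGFR1 differed by 0.11 ± 0.21 (SE; adjusted p = 0.976 by limma) and the lower end of NSD3 by −0.23 ± 0.22 (SE; adjusted p = 0.965 by limma). The upper end of NSD3, shared with LETM2, differed in the other direction, by 0.31 ± 0.35 (SE; adjusted p = 0.966 by limma). The 17 genes of the 8p12 list share 15 regions, since LSM1 with BAG4 and PLPP5 with NSD3 have the same one. Of these, 8 had a higher and 7 a lower score in silenced cells, and 0 reached an unadjusted p of 0.05.

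Regions called in one group only were few and weak. In the window 3 of 1820 regions (0.165%) were called in all 3 silenced and 0 control libraries, against 0.130% of all merged regions of the genome, and 3 (0.165%) in all 3 control and 0 silenced libraries, against 0.200%. Both shares lie near those of the genome. The silenced-only regions were chr8:39053817-39054288 in ADAM9, with heights of 6, 7 and 7, chr8:36321931-36322405 between genes, with 4, 7 and 3, and chr8:41735967-41736463 in ANK1, the gene of an erythrocyte membrane adaptor, with 3, 3 and 2. The control-only regions were chr8:40633502-40634126 in ZMAT4, with heights of 5, 4 and 5, chr8:41712521-41712982 in ANK1, with 3, 3 and 4, and chr8:37548159-37548431 in the lncRNA gene LINC01605, with 6, 6 and 11. The worst FDR among the 3 calls of a region ranged from 0.0407 to 0.279. With an FDR of at most 1e-05, 0 of the 186 regions of the window were called in one group only. Over the genome, 0.0993% were silenced-only and 1.01% control-only under that limit. Leaving out 1 library at a time gave 3 to 18 silenced-only and 4 to 23 control-only regions. It also loosens the rule for the group of that library from 3 calls to 2. Without any 1 silenced library the silenced-only count was 16 to 18, and without any 1 control library the control-only count was 16 to 23. The highest counts came without silenced replicate 3 (1.11% of the regions, against 1.23% over the genome) and without control replicate 2 (1.36% against 1.37%).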

How the data were processed

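Peak lists of 6 ATAC-seq libraries were used, each made from a single library as far as its peak names show. The submitters' processing notes name GRCh38, Trimmomatic 0.36, Bowtie2 2.2.6, Picard 2.8.2, MACS2 2.1.1 and bedtools 2.25.0, without settings. Whether the read ends were moved to the transposase cut, whether duplicates or mitochondrial reads were removed and whether a control library was given is not given in the sources used here, and the depth in reads is unknown. Per the file headers, the deposited lists hold a fold enrichment (a ratio), a p-value, an FDR and a pileup signal, here the height. These values, the authors' own, are not on one scale between libraries, so windows were compared within a library and regions by rank within a list. The largest deposited p-value was 0.00987.

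Gene names and spans came from RefSeq (GRCh38.p14), in which all listed genes were found by symbol. No sequences are printed. Peaks were merged over libraries at 1 bp, assigned to 100 kb steps by midpoint, and compared in Python 3.11.15 (pandas 2.3.3, numpy 2.4.6) with two-sided exact sign-flip and exact permutation tests, 8 in all, adjusted by Benjamini-Hochberg. Normal scores of fold ranks were fitted with limma 3.58.1 in R 4.3.3 (lmFit, eBayes with trend), and this step was tested on simulated data. Genes were named by a rule: FGFR1 and NSD3, the 3 of highest and 1 of lowest median fold in each window list, the 5 regions of highest fold, regions called in one group only, and the 2 regions per direction with the smallest limma p. The members, lists and tests were chosen with earlier results of these data known. Alternatives covered the FDR, the height, list size, step size, step percentile, comparison regions, merging, rank measure, replicate block and each library left out. Peaks over 10 kb from a gene end, leaving out both libraries that stand apart, the protein-coding genes of the rest of chromosome 8 as the baseline of the gene lists, and the count of regions whose groups do not overlap by height were added after the data were seen.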

Additional observations from a re-analysis of the deposited data

How the results depend on the processing

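All values here are log2 ratios or counts as in the report. The background ratio of the window to the rest of chromosome 8 kept its sign throughout. It passed 0.05 unadjusted (exact sign-flip p = 0.03125) with an FDR of at most 1e-05 (0.57), lists of equal size (0.42), a height of at least 4 (0.36), steps of 50 kb (0.52) and the median of a step (0.40). Leaving out 1 library gave 0.03 to 0.08. The density ratio was 0.28 with an FDR of at most 1e-05, 1.06 with a height of at least 4, 1.004 with lists of equal size and 0.59 against chromosomes 1 to 22 and X, each above 0 with an exact sign-flip p of 0.03125. It was 0.71 to 0.84 with 1 library left out and 0.65 without silenced replicate 3 and control replicate 2, and the gene-end height ratio was 0.56 to 0.74 and 0.71. Their p was then 0.0625 and 0.125, the smallest that 5 and 4 libraries allow. The height ratio was 0.25 with lists of equal size, 0.21 with a height of at least 4, 0.25 against chromosomes 1 to 22 and X and 0.28 for peaks over 10 kb from a gene end. It was 0.53 to 0.67 with 1 library left out and passed 0.05 with an FDR of at most 1e-05 (0.48, exact sign-flip p = 0.03125).

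Raised steps numbered 14 to 15 with 1 library left out. That was 34.1% to 39.5% of the measured steps, against 6.36% to 10.7% on the rest of chromosome 8 and 5.33% to 6.91% on other chromosomes. They numbered 2 for peaks over 10 kb from a gene end (18.2%, against 10.2% and 6.40%). With an FDR of at most 1e-05 they numbered 0, where 4 steps could be measured (0%, against 9.09% and 4.38%). The differences between silenced and control cells turned in sign for background with an FDR of at most 1e-05 (−0.0619). They did so for density with that FDR (0.0622), with a height of at least 4 (0.0584) and without silenced replicate 3 and control replicate 2 (0.0510). The window share turned under the same 3 settings (0.0105, 0.0156 and 0.00854 percentage points). With 1 library left out these differences were −0.0189 to 0.11 for background (0.32 with lists of equal size, exact permutation p = 0.1), −0.23 to 0.14 for density, −0.11 to 0.26 for height and −0.0501 to 0.0264 for the share. The cause was not tested.

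Silenced-only regions numbered 0 with an FDR of at most 1e-05 (0%, against 0.0993% over the genome). They numbered 1 with a height of at least 4 (0.0931% against 0.0959%) and 1 with lists of equal size (0.0931% against 0.124%). Without both libraries, where the rule asks for fewer libraries per group, they numbered 26 (1.75% against 1.54%). Control-only regions numbered 0 with that FDR (0% against 1.01%) and 29 without both (1.95% against 1.84%). Limma called 0 regions of the window, and 0 of all regions, under each of 13 alternatives, with 1508 to 2462 regions of the genome at an unadjusted p under 0.05 except with the FDR limit (854). Libraries with equal replicate numbers showed no pairing by their correlations (−0.0020, 0.0024 and −0.0083). Whether they were prepared in pairs is not known. With the replicate block limma called 0 regions, and the paired differences were unchanged at 0.06 (background), −0.09 (density), 0.14 (height) and −0.02 percentage points (share), with exact sign-flip p = 0.75, 1, 1 and 1. The depth in reads is unknown, so whether a weak peak absent from a list was closed or only missed was not tested.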

Other observations

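Away from gene ends, the window held 94 shared regions, 51 in the raised span and 43 outside it. Their median height was 23 in the span and 11.5 outside, and their median percentile by fold was 43.1 and 34.4. The 6 tallest, chosen after their values were seen, all lie inside genes of the span: 3 in TACC1, 2 in ADAM9 and 1 in LETM2. Whether any of them covers a transcript start inside its gene was not tested. TACC1, a gene whose counted gene-end region was called in 1 library, had intragenic regions at chr8:38734610-38735125 (heights 55, 81 and 32 in the silenced and 65, 74 and 74 in the control libraries), chr8:38756634-38758023 (62, 84 and 29, and 69, 74 and 73) and chr8:38784821-38785519 (65, 63 and 28, and 64, 72 and 52). The first of these ranked at percentile 91.5 by fold, above the upper end of NSD3 at 28.0. In ADAM9 the region chr8:39032024-39032922 had heights of 88, 105 and 55 and of 77, 85 and 91, and chr8:39037878-39038607 had 89, 109 and 71 and 82, 113 and 76. The LETM2 region chr8:38385990-38387152 was the tallest of the 6, with 78, 112 and 68 in the silenced and 99, 121 and 106 in the control libraries. Silenced and control heights overlapped at each of the 6, and limma gave adjusted p-values of 0.963 to 0.992.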
